A study of Mus musculus with 6 samples.

Results

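The genes described are 6 transcription factors of beta cell identity, Pdx1, Nkx6-1, Mnx1, Mafa, Isl1 and Pax6, taken by name from a table of 49671 mouse genes. All 6 had an entry, and all 6 passed the filter on low counts that left 17519 genes to test. RNA came from embryonic pancreata (E14.5, strain C57BL/6J), with 3 libraries from tissue treated with AMI-5 at 10 µM and 3 from tissue labelled control. AMI-5 is a compound known to inhibit protein methyltransferases, including those that act on arginine, and the study's title names its effect on pancreas differentiation. The labels give neither a solvent for the control nor the length of treatment. The AMI-5 libraries held 22894312 to 24805188 counts and the control libraries 12445425 to 13321899. No label says that samples of a group came from separate animals or cultures, so the spread behind each p-value is that of the samples at hand and may be technical. The labels name an earlier version of the library kit for samples marked A, the mark in the control titles, while AMI-5 titles carry Am. Read literally, kit and treatment cannot be told apart in any comparison given here. In whole-tissue RNA, fewer cells of a type and less of an RNA per cell cannot be told apart either.

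Beta cells arise from a trunk epithelium of progenitors by way of short-lived cells that express Neurog3, and the factors that fix their identity come on in stages. Pdx1 and Mnx1, homeodomain proteins, are already present when the pancreatic buds form. Nkx6-1, a homeodomain repressor, marks trunk progenitors and is later kept in beta cells. Isl1, a LIM-homeodomain protein, and Pax6, with a paired domain and a homeodomain, come on in all endocrine lineages. Mafa, a basic leucine zipper protein that binds and activates the insulin promoter, is the last to appear and marks maturing beta cells.

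Pdx1 (ENSMUSG00000029644), Nkx6-1 (ENSMUSG00000035187) and Mnx1 (ENSMUSG00000001566) lie on chromosome 5, at 147269959 to 147275848, 101658139 to 101664996 and 29473034 to 29478470 of mm10. Mafa (ENSMUSG00000047591) lies on chromosome 15, Isl1 (ENSMUSG00000042258) on chromosome 13 at 116298281 to 116309689, and Pax6 (ENSMUSG00000027168) on chromosome 2 at 105668900 to 105697364. Counting covered 2 merged exons of Pdx1, 3 of Nkx6-1, 3 of Mnx1, 7 of Isl1 and 16 of Pax6. Mafa was counted over a single exon of 1080 bases, at 75746843 to 75747922, although the GENCODE M21 annotation gives it an exon of 2739 bases. Reads on the rest of that exon did not enter its values. Sequence sharing could affect these genes little: no 50-base stretch of 5 of them occurs in another annotated gene, and 0.443% of those of Pax6 do.

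Promoter sequence is shown for factors that fell with AMI-5 (Pdx1, Mnx1) beside factors that did not pass (Isl1, Pax6), so that the windows can be compared. RefSeq windows (build GRCm38.p6, from 250 bases before to 50 bases after the transcript start) were matched for 5 of the 6 genes, all but Mafa, and Pax6 had a window for each of 2 starts. Bases upstream of both the RefSeq and the GENCODE start are printed (the Nkx6-1 window lies inside its GENCODE gene and is left out), 5′ to 3′ on the gene's strand, with each C followed by G (a CpG) in capitals. Pdx1 is chr5:147269847-147269958 on the plus strand, Mnx1 chr5:29478471-29478720 on the minus strand, Isl1 chr13:116309690-116309938 on the minus strand and Pax6 chr2:105668646-105668895 on the plus strand.
Pdx1: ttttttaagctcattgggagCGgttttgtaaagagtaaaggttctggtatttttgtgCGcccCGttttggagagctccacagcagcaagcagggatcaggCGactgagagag
Mnx1: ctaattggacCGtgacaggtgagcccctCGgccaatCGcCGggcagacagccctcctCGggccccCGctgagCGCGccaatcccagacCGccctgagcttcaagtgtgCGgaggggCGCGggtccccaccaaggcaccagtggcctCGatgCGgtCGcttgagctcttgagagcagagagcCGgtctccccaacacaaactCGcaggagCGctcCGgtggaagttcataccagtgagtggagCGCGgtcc
Isl1: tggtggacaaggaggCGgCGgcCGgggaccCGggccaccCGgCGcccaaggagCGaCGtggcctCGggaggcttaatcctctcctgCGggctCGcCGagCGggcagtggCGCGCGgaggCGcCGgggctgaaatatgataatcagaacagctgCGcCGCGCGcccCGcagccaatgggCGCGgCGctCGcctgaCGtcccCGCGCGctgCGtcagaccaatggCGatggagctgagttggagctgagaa
Pax6: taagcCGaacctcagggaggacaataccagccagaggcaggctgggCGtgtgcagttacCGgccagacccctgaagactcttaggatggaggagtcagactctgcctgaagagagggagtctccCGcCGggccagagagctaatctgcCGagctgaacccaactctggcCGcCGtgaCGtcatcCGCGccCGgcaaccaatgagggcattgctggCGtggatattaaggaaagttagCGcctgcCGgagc
Over whole windows, Nkx6-1 had 40 CpGs, Isl1 37, Mnx1 26, the upstream and downstream windows of Pax6 18 and 16, and Pdx1 11, against a median of 7 over 32851 windows. Fewer CpGs were found in 96.1% of all windows than in that of Nkx6-1, in 94.4% than in that of Isl1, in 83.1% than in that of Mnx1, in 70.3% and 67% than in those of Pax6, and in 58.6% than in that of Pdx1, which thus lay near the middle. The E-box CANNTG, a motif of basic helix-loop-helix proteins that reads the same on both strands, occurred 3 times in the Pdx1 window, 3 times in that of Mnx1, once in that of Isl1 and in the downstream window of Pax6, and in neither the Nkx6-1 window nor the upstream window of Pax6. It was present in 72.3% of all windows. The homeodomain core TAAT, searched on both strands, was present in 58% of all windows, once in that of Mnx1, 2 times in that of Isl1 and in each of Pax6, and not in those of Pdx1 and Nkx6-1.

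With AMI-5, Mafa, Mnx1, Nkx6-1 and Pdx1 fell, and Isl1 and Pax6 showed no difference past the threshold. Of the 6 factors, 4 were lower and 0 higher at an adjusted p under 0.05 (quasi-likelihood test in edgeR, Benjamini-Hochberg adjustment over all genes tested). In the same fit 26.6% of tested genes were lower, 27.5% higher and 54.1% called in either direction. These shares are the background for the counts of every list in this fit. The same 4 factors had groups that did not overlap in CPM, as did 61.9% of tested genes. Among protein-coding genes with under 5% of their sequence shared, the class to which all 6 belong, 30.3% were lower. The median log2 fold change (AMI-5 over control) was -0.76 for the 6 and -0.0013 for all genes tested. Values are also given after an all-gene correction and a unique-gene correction, in which smooth trends with GC content and exon length were removed from each library, fitted on every tested gene or on unique-sequence protein-coding genes alone. The all-gene correction moved the background too, to 5428 of 17519 genes higher and 4125 lower (56.8% of calls higher, against 50.9% without it). After the unique-gene correction, 1915 of 10915 genes were higher and 2186 lower (46.7% of calls higher). These are the backgrounds for the counts of every list after either correction. GC content of the annotated transcripts was 64.95% for Mafa, 59.44% for Mnx1, 58.99% for Nkx6-1 and 55.65% for Pdx1, and 46.9% for Isl1 and 48.72% for Pax6. The 4 factors called lower thus had higher GC content than both factors without a call. The part of GC content in this split was not tested. For Mafa the value covers the annotated exon of 2739 bases, whereas the length used in both corrections was the 1080 bases counted.

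Pdx1, which the pancreas needs to form and beta cells need to function, had 56.7, 53.6 and 61.7 CPM in the AMI-5 libraries, against 96.4, 87.7 and 85.8 CPM in control. CPM is the count scaled to a common library total, here a total adjusted by TMM, a method that aligns the bulk of genes between libraries. Every AMI-5 library was below every control library. The log2 fold change was -0.65 (SE 0.070, adjusted p = 1.01e-05, edgeR), and -0.53 and -0.48 after the all-gene and the unique-gene correction.

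Plut, a long noncoding RNA gene on the opposite strand that overlaps the Pdx1 locus (147228596 to 147271521) without sharing exon bases, is known from human beta cells to promote transcription of its neighbour. It had 9.65, 7.80 and 10.2 CPM with AMI-5, against 10.6, 11.6 and 10.2 CPM in control, and was named after its values were seen. Its log2 fold change of -0.23 did not pass (SE 0.13, adjusted p = 0.161, edgeR), but it passed with libraries scaled by their totals alone (-0.32, adjusted p = 0.0492) and after the all-gene correction (-0.34, adjusted p = 0.0401). The strand setting of the counting is not known here, so unspliced Plut RNA read within Pdx1 exons cannot be told apart from Pdx1.

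Nkx6-1 had the highest CPM of the 6 in both groups, at 74.2, 74.8 and 86.4 CPM in the AMI-5 libraries, against 153, 137 and 138 CPM in control. No AMI-5 library came near the lowest control library. Its log2 fold change was -0.86 (SE 0.074, adjusted p = 1.39e-06, edgeR), which put AMI-5 tissue at 0.550 of the control level. This was the only one of the 4 calls that ended under an alternative: Nkx6-1 was at -0.15 after the all-gene correction (adjusted p = 0.104, edgeR) and at -0.54 after the unique-gene correction (adjusted p = 0.000314, edgeR).

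Mnx1, which the dorsal pancreatic bud requires, was the scarcest of the 6 by CPM. It had 7.49, 6.10 and 6.67 CPM with AMI-5, against 13.1, 14.3 and 11.8 CPM in control. These rest on 137 to 167 reads per AMI-5 library and 156 to 196 per control library, yet the groups did not overlap after scaling. The log2 fold change was -0.95 (SE 0.13, adjusted p = 5.45e-05, edgeR), and -0.47 and -0.65 after the all-gene and the unique-gene correction.

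Mafa had the largest fall of the 6, and only 0.965% of tested genes had a lower fold change. Its levels were 7.81, 8.95 and 10.3 CPM with AMI-5, against 23.7, 24.3 and 24.8 CPM in control. The control libraries lay close together, and the AMI-5 libraries were more spread but all far below them. The log2 fold change was -1.43 (SE 0.11, adjusted p = 4.64e-07, edgeR), that is, 0.372 of the control level. After the all-gene correction it was -1.63, and after the unique-gene correction -0.999.

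Isl1, which endocrine cells need to mature and survive, had 46.3, 45.2 and 45.2 CPM with AMI-5, against 43.8, 50.1 and 44.4 CPM in control. The AMI-5 values lay inside the control range. The log2 fold change was -0.018 (SE 0.067, adjusted p = 0.842, edgeR), with a 95% interval of -0.15 to 0.11, and its sign turned in 7 of 17 alternatives. Isl1 is also expressed in pancreatic mesenchyme and in neurons, so its level is not endocrine alone. The 8 mesenchyme markers summed to 8365 to 9590.1 CPM with AMI-5 and 8712 to 9053 CPM in control, and the 7 neural markers to 115 to 137 CPM and 157 to 165 CPM. Their part in the level of Isl1 was not tested. The 4 motor neuron markers, a cell type that uses both Isl1 and Mnx1, summed to 2.09 to 2.49 CPM with AMI-5 and 2.01 to 2.58 CPM in control, and its defining factors Lhx3 and Lhx4 were at or near 0 in both groups.

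Pax6, which islet hormone genes require, had 59.4, 52.03 and 59.8 CPM with AMI-5, against 55.02, 58.96 and 53.3 CPM in control. The ranges of the groups overlapped. The log2 fold change was 0.034 (SE 0.070, adjusted p = 0.706, edgeR), with a 95% interval of -0.10 to 0.17. It turned to -0.060 with libraries scaled by totals alone and passed as higher, at 0.25 (adjusted p = 0.0168), after the all-gene correction. Pax6os1, an antisense transcript, overlaps the start of the Pax6 locus without sharing exon bases. It had 29, 15 and 29 reads with AMI-5 and 13, 21 and 13 in control, where Pax6 had 1168 to 1416 and 703 to 809. These reads are not scaled, and the AMI-5 libraries were deeper. Scaled, Pax6os1 had 1.30, 0.668 and 1.22 CPM with AMI-5, against 1.01, 1.53 and 0.985 CPM in control. Its log2 fold change of -0.14 did not pass (adjusted p = 0.733, edgeR).

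**Figure D1:**
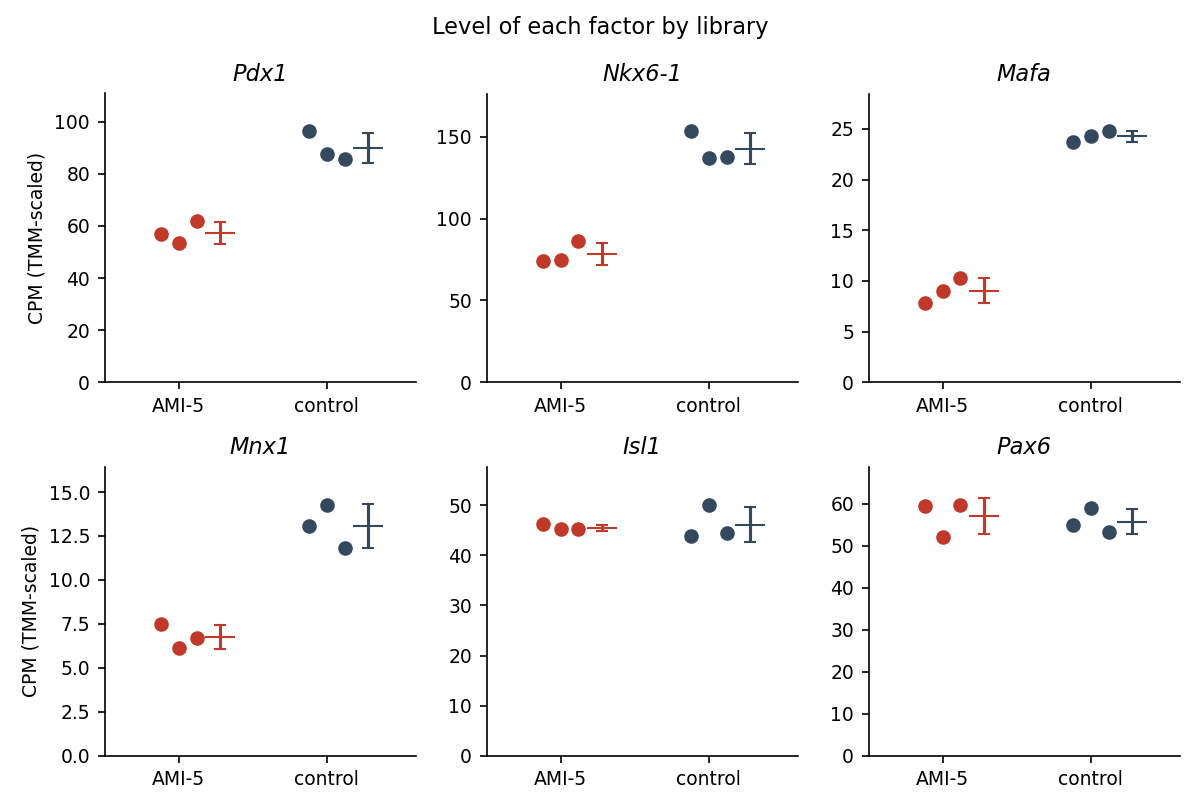
TMM-scaled CPM of each factor by library, AMI-5 left and control right, with the mean and SD of 3 libraries beside the points. Pdx1, Nkx6-1, Mafa and Mnx1 lie lower in every AMI-5 library than in any control library, whereas the groups overlap for Isl1 and Pax6.

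Levels of different genes were compared per length as TPM, computed from the deposited counts and exon lengths and scaled to one sum in every library. TPM is used only for the order within libraries and for ratios between members, because on that scale the median tested gene had a log2 ratio of -0.39 between groups, against -0.0011 on the CPM scale. In the AMI-5 libraries the mean TPM was 55.3 ± 2.72 for Pdx1, 52.1 ± 4.01 for Nkx6-1, 24.0 ± 0.687 for Isl1, 17.4 ± 2.38 for Mafa, 10.2 ± 0.457 for Pax6 and 6.25 ± 0.494 for Mnx1 (SD, n = 3). In control libraries it was 124 ± 4.02 for Nkx6-1, 114 ± 2.24 for Pdx1, 61.5 ± 5.44 for Mafa, 31.8 ± 3.34 for Isl1, 15.8 ± 1.36 for Mnx1 and 13.01 ± 0.937 for Pax6 (SD, n = 3).

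The order thus differed between the groups at 3 places: Pdx1 stood above Nkx6-1, Isl1 above Mafa and Pax6 above Mnx1 with AMI-5, and each of these pairs stood the other way round in control. With AMI-5 the ranges of the first pair overlapped across libraries (53.7 to 58.4 TPM for Pdx1 and 48.3 to 56.3 TPM for Nkx6-1), although within each library Pdx1 was above Nkx6-1, by a ratio of 1.11, 1.04 and 1.04, against 0.914, 0.929 and 0.906 in control. The ranges of all other neighbours in either order did not overlap. Mafa was compared with the rest on its counted 1080 bases, which hold its coding part but may miss reads of its untranslated exon ends. Pax6 was divided by 11694 bases of merged exons and Mnx1 by 2250, so the order of this pair rests on these lengths. By mean CPM, Pax6 was above Mnx1 in both groups (57.1 and 6.76 with AMI-5, 55.8 and 13.1 in control).

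**Figure D2:**
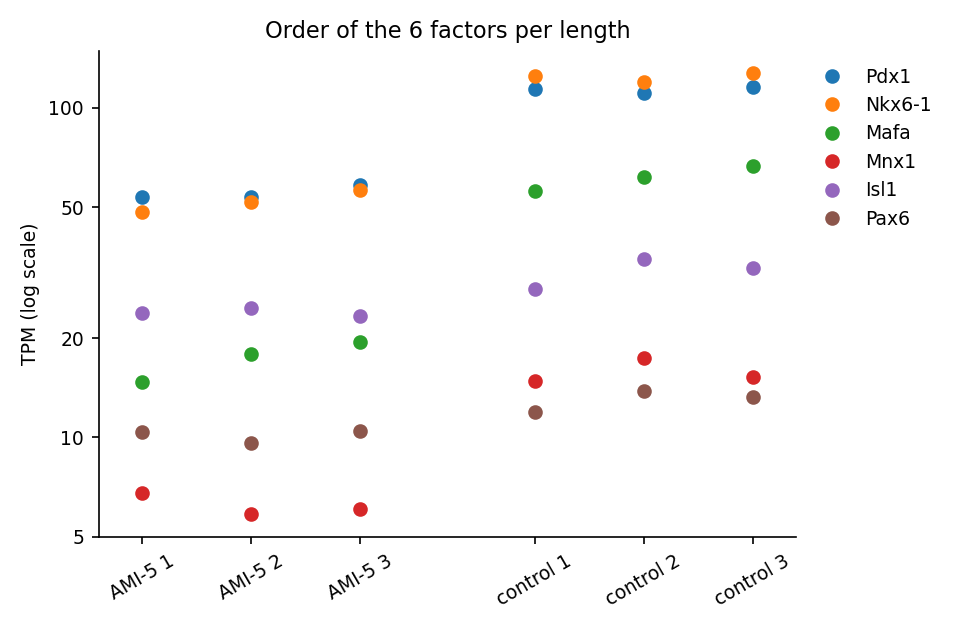
TPM of the 6 factors in each library on a log axis, AMI-5 libraries left and control libraries right. Mafa lies below Isl1 in all 3 AMI-5 libraries and above it in all 3 control libraries, and Mnx1 and Pax6 also change places.

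Ratios between factors within a library do not depend on how libraries are scaled. No GC or length trend was removed from the ratios given here. Mafa to Isl1 was 0.619, 0.726 and 0.832 with AMI-5, against 1.99, 1.78 and 2.05 in control. Mafa to Pdx1 also moved: Pdx1 to Mafa was 3.64, 3.00 and 3.01 with AMI-5, against 2.03, 1.80 and 1.73 in control. Isl1 to Pax6 was 2.30, 2.57 and 2.23 with AMI-5, against 2.35, 2.51 and 2.46 in control, and overlapped. The other pair that overlapped was Nkx6-1 to Mnx1, at 7.10, 8.79 and 9.28 with AMI-5, against 8.40, 6.88 and 8.35 in control. Of the 15 ratios, 13 did not overlap between the groups, and each of these had p = 0.1 in an exact two-sided permutation test, the smallest p that 3 against 3 libraries allow (0.115 adjusted over the 15). A test of this size cannot pass 0.05. How often ratios between other genes fail to overlap was not measured, so 13 of 15 has no background. Singly, 61.9% of tested genes did not overlap between the groups in CPM. The 15 ratios reuse the same factors, so they are not independent and in part restate the calls of single factors.

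As a share of the 6 factors' summed TPM, Isl1 made up 14.6% ± 0.983 with AMI-5 and 8.84% ± 0.805 in control, and Pax6 6.16% ± 0.368 and 3.62% ± 0.214 (SD, n = 3). Mafa made up 10.5% ± 0.991 with AMI-5 and 17.1% ± 0.993 in control. Pdx1 and Nkx6-1 remained the bulk, at 33.5% ± 0.584 and 31.5% ± 0.874 with AMI-5 and 31.6% ± 0.861 and 34.5% ± 1.14 in control.

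To set the factors beside the endocrine compartment, each was divided by the summed CPM of 10 pan-endocrine marker genes, most of which encode granins and other proteins of the secretory granule. That sum was 1921 to 2162 CPM with AMI-5 and 2087 to 2344 CPM in control, overlapping ranges. Of the 10 markers, 1 was higher and 4 were lower. Per 1000 CPM of these markers, Mafa had 3.74, 4.66 and 4.75 CPM with AMI-5, against 10.1, 11.2 and 11.9 CPM in control, a log2 difference of -1.34. Nkx6-1 had 35.5, 38.96 and 39.97 CPM with AMI-5, against 65.5, 63.3 and 65.95 CPM in control, a log2 difference of -0.77. Pdx1 differed by -0.55 and Mnx1 by -0.86 on the same scale, and these 4 factors did not overlap between the groups (p = 0.1 each, exact permutation test, the smallest possible). Isl1 had 22.1, 23.5 and 20.9 CPM per 1000 with AMI-5, against 18.7, 23.1 and 21.3 in control (p = 0.5, exact permutation test), and Pax6 differed by 0.13 (p = 0.2, exact permutation test). The 4 factors were thus lower relative to these markers too, whereas Isl1 and Pax6 overlapped. No GC or length trend was removed from these ratios. Pdx1, Nkx6-1 and Mnx1 are also expressed in progenitors, so the ratios are not levels per endocrine cell.

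**Figure D3:**
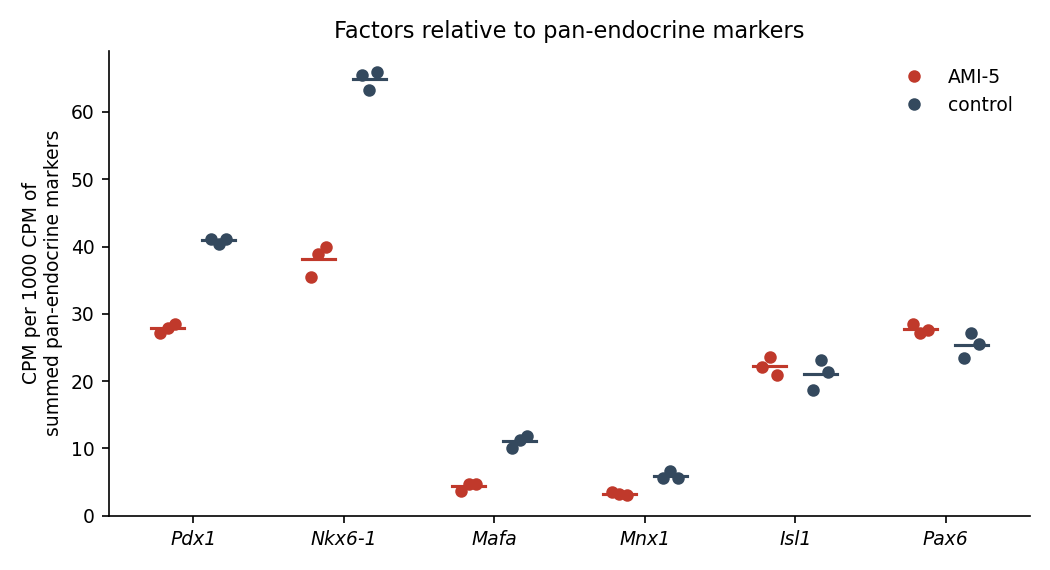
CPM of each factor per 1000 CPM of 10 summed pan-endocrine markers, by library, with AMI-5 left of control and lines at the means. Nkx6-1 has 35.5 to 39.97 with AMI-5 and 63.3 to 65.95 in control, while the groups of Isl1 and Pax6 overlap.

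Other markers moved as well. The 8 acinar markers, which encode digestive enzymes and acinar factors, summed to at least 79934 CPM in each AMI-5 library and at most 56712 CPM in each control library, and 4 were higher and 0 lower. The 6 erythroid markers summed to 77.3 to 229.9 CPM with AMI-5 and 9.11 to 17.1 CPM in control, and the 6 leukocyte markers to 291 to 336 CPM and 227 to 245 CPM. The 6 endothelial markers summed to 357 to 506 CPM with AMI-5 and 445 to 542 CPM in control, and the 4 mesothelial markers to 44.4 to 79.3 CPM and 47.7 to 69.4 CPM. The 5 gut markers summed to at most 36.0 CPM with AMI-5 and 29.6 CPM in control, with Cdx2 at or near 0 in both groups. The 8 trunk and duct markers summed to 3729.9 to 4116 CPM with AMI-5 and 3685 to 3991 CPM in control, with 2 higher and 2 lower. The part of such shifts in cell makeup in the levels of the 6 factors was not tested.

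Other transcription factors of the islet network were lower or showed no call. Of 16, 9 were lower and 0 higher, around a median of -0.28. Insm1, a zinc finger protein of endocrine precursors, was at 34.2 ± 1.76 CPM with AMI-5 and 57.5 ± 5.19 CPM in control (log2 fold change -0.75, SD, n = 3). Mlxipl, the carbohydrate response factor, was at 49.4 ± 2.60 CPM with AMI-5 and 96.2 ± 13.9 CPM in control (-0.96). Fev, which marks cells just past the Neurog3 stage, was at 7.52 ± 0.581 CPM with AMI-5 and 16.2 ± 2.95 CPM in control (-1.10). Glis3, a zinc finger factor of beta cells, was at -0.15 and did not pass (adjusted p = 0.175, edgeR), but passed as lower with libraries scaled by totals alone (-0.24, adjusted p = 0.0269). The all-gene correction left 3 higher and 4 lower, with Insm1 at 0.29, Mlxipl at -0.53 and Fev at -0.64. Insm1 thus passed in the other direction (adjusted p = 0.00896, edgeR). The unique-gene correction, which covered 13 of the 16 factors, left 0 higher and 5 lower.

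Factors of the progenitors in which Pdx1, Nkx6-1 and Mnx1 are also expressed were mostly lower. Of 12, 10 were lower and 0 higher, around a median of -0.30. Neurog3, which starts endocrine differentiation, had the largest difference (10.8 ± 2.47 CPM with AMI-5 and 32.04 ± 5.20 CPM in control, log2 fold change -1.57, SD, n = 3), with 13.3% of its 50-base stretches shared with other genes. Onecut1 was at -0.87, with 52.3% shared, and the Notch target Hes1 at -0.32. Prox1 was at -0.13 (adjusted p = 0.139, edgeR) and Ptf1a, an acinar and early progenitor factor, at -0.087 (adjusted p = 0.530), neither past the threshold. Prox1 passed as lower with libraries scaled by totals alone (-0.22, adjusted p = 0.0210). Ptf1a passed as lower after the all-gene correction (-0.61, adjusted p = 0.00211) and without control replicate 3 (-0.22). The all-gene correction left 3 higher and 5 lower, and the unique-gene correction 0 and 1 among the 8 it covered, where Hes1 was at -0.13.

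Factors of other endocrine fates fell in part. Of 7, 3 were lower and 0 higher. The alpha cell factors Irx2 and Irx1 were at log2 fold changes of -0.48 and -0.36, and neither call held after the unique-gene correction or without control replicate 2. After the all-gene correction Irx2 was at -0.10 and Irx1 passed in the other direction, at 0.49. The counts were then 1 higher and 3 lower, against 0 and 1 among the 6 covered by the unique-gene correction.

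Family members of the 6 factors were measured too. Of 17, 8 passed the filter, with 4 lower and 0 higher, so the count holds for the measurable ones only. Nkx6-2, the paralog of Nkx6-1, was at 12.3 ± 2.66 CPM with AMI-5 and 30.6 ± 2.07 CPM in control (log2 fold change -1.31, SD, n = 3), with 10.7% of its 50-base stretches shared with other genes. After the all-gene correction it was at -0.46 (adjusted p = 0.0179, edgeR). Pax4, the relative of Pax6 that favours beta over alpha cells, was at 2.08 ± 0.515 CPM with AMI-5 and 5.84 ± 0.801 CPM in control (-1.48, or -2.21 after the all-gene correction). Lmx1b, a LIM-homeodomain relative of Isl1, was at -0.73, a call that held after neither correction. Maf, the relative of Mafa with mainly non-endocrine expression, was at 0.31 (adjusted p = 0.0872, edgeR), and passed as higher after the all-gene correction (0.52, adjusted p = 0.0235) and without AMI-5 replicate 3 (0.47). The all-gene correction left 3 of the 8 higher and 2 lower, and the unique-gene correction 0 and 1 of 7.

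Partner proteins of the factors were mostly without a call. Of 20 cofactors, 1 was higher and 7 were lower, around a median of -0.086. Ldb1, the adaptor through which Isl1 acts, was at 146 ± 1.58 CPM with AMI-5 and 233 ± 6.96 CPM in control (log2 fold change -0.67, SD, n = 3), although Isl1 itself did not pass. Ssbp4, of a family that stabilises Ldb1, was at -0.64, and Smarca4, a chromatin remodelling ATPase, at -0.60. The balance of these counts turned with the all-gene correction, to 8 higher and 2 lower, where Ldb1 was at -0.070, Smarca4 at -0.21 and Ssbp4 at 0.77. Ssbp4 thus passed in the other direction (adjusted p = 2.26e-07, edgeR), and Ldb1 no longer passed (adjusted p = 0.218, edgeR). The unique-gene correction left 2 of 17 higher and 4 lower.

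Beta cell genes that these factors are known to act on, or that serve beta cell function, were split. Of 20, 6 were higher and 7 lower, near the shares over all tested genes (27.5% higher and 26.6% lower), around a median of -0.068. Ins1 was higher (log2 fold change 0.49, SE 0.094, adjusted p = 0.00127, edgeR) and Ins2 did not pass (-0.053, adjusted p = 0.686), in the libraries where Mafa, Pdx1 and Nkx6-1 were lower. Npy, a peptide of immature beta cells, was at 7.85, 6.41 and 7.01 CPM with AMI-5, against 17.7, 16.8 and 14.6 CPM in control (-1.21). Abcc8, the sulfonylurea receptor, was at -0.74. Iapp, the islet amyloid peptide, was at 0.18 (adjusted p = 0.181, edgeR). The all-gene correction left 3 higher and 6 lower, with Ins1 at -1.08, Npy at -3.28 and Abcc8 at -0.22. Ins1 thus passed in the other direction (adjusted p = 1.27e-07, edgeR). The unique-gene correction left 3 higher and 5 lower of 19. Ins2 and Iapp passed as lower after the all-gene correction, at -0.86 (adjusted p = 3.20e-06, edgeR) and -1.76 (adjusted p = 3.58e-08, edgeR). Iapp also passed as higher without AMI-5 replicate 2 (0.30).

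Among 6 hormone and carrier genes of other endocrine cells, 3 were lower and 0 higher. Pyy was at 268 ± 20.6 CPM with AMI-5 and 444 ± 29.5 CPM in control (log2 fold change -0.73, SD, n = 3), Ghrl at -0.67 and Ttr at -0.89. Gcg, a gene that Pax6 is known to activate, was at 0.42 (adjusted p = 0.159, edgeR) and Sst, which Pdx1 is known to activate, at 0.10 (adjusted p = 0.192), neither past the threshold. The all-gene correction left 0 higher and 5 lower, with Pyy at -2.41, Ghrl at -1.93, Ttr at -2.26 and Sst at -1.80. The unique-gene correction left 2 higher and 2 lower of 5, with Sst higher at 0.25.

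**Figure D4:**
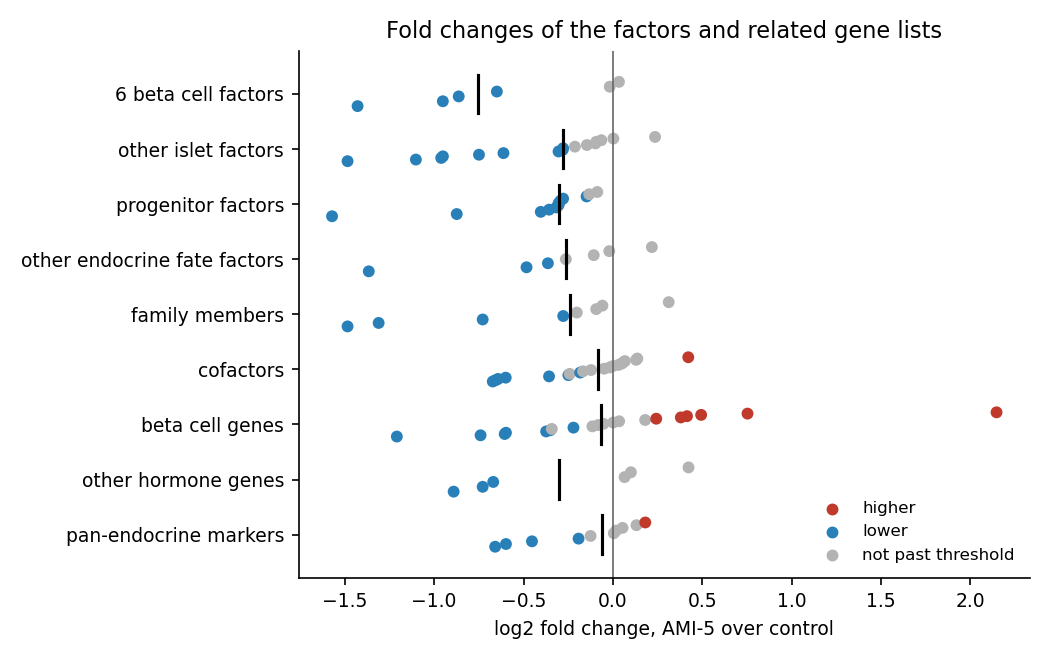
Log2 fold change (AMI-5 over control) of each tested gene in the 6 factors and 8 related lists, coloured by call, with a bar at each median. The 6 factors have a median of -0.76 with 4 genes lower, whereas the 20 beta cell genes spread from -1.21 to 2.15 around a median of -0.068.

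Among 11723 protein-coding genes with at least 5 CPM, those with the log2 CPM profile nearest to a factor over the 6 libraries were Dera, Zfp219 and Tjp3 for Pdx1, at a Euclidean distance of 0.057 to 0.090, and Grasp, Sall4 and Mov10 for Nkx6-1 (0.0997 to 0.14). For Mnx1 they were Slc38a5, Gstm1 and Klf8 (0.13 to 0.17), and for Mafa H2afy2, Col11a1 and Emid1 (0.25 to 0.27). Isl1 was nearest to Napa, Srp68 and Atg13, and Pax6 to Sgsm3, Lgi2 and Yipf2 (0.055 to 0.069). A profile of 6 libraries in 2 groups is set mostly by the difference between the groups, and the 6 points share the depth of each library.

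**Figure D5:**
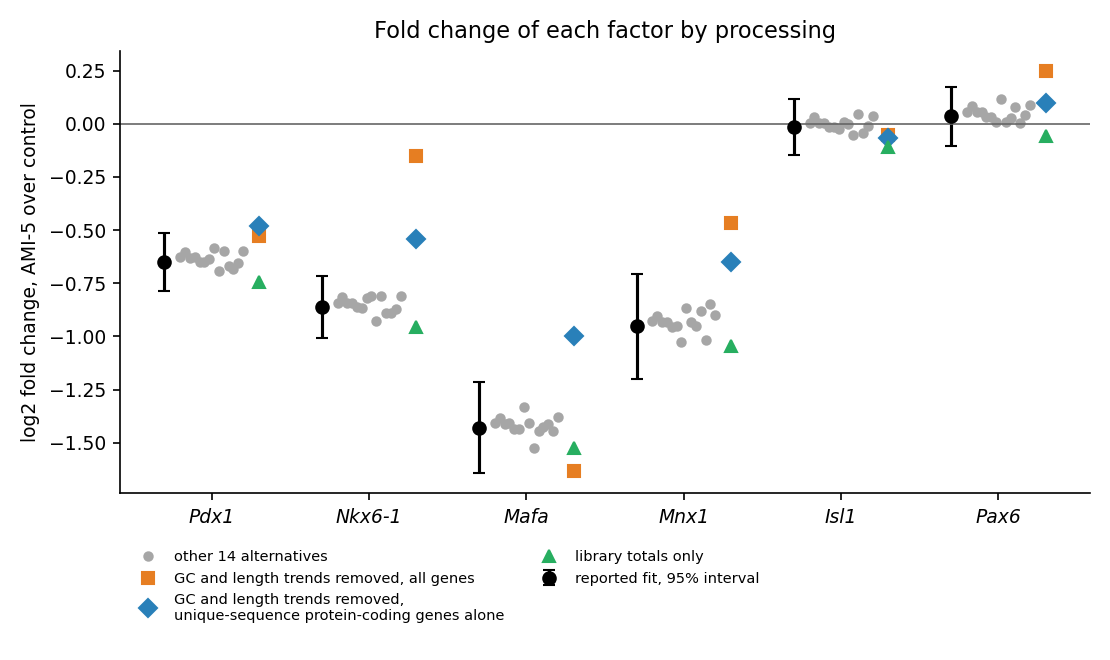
Log2 fold change of each factor (AMI-5 over control) in the reported fit, with its 95% interval, and in 17 alternatives. Mafa lies between -1.63 and -0.999, Pdx1 between -0.74 and -0.48, and Nkx6-1 reaches -0.15 after the all-gene correction.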

How the data were processed

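The deposited table holds read counts per gene, not normalized, from strand-specific libraries. The submitters' processing notes name the mm10 build, featureCounts 1.6.2, GSNAP 2018-05-30 and bcl2fastq 2.19.1, and the table carries the label e87. The deposited length column gives exon bases (a value of another kind) and entered TPM and the length trend. Neither the strand setting nor the handling of multi-mapped reads is stated in the labels. The 92 spike-in entries held 1 read and were left out.

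Symbols, GC content and shared 50-base stretches came from GENCODE M21. Tests on the counts used edgeR 4.0.16 under R 4.3.3 (filterByExpr, TMM, robust quasi-likelihood F test, group as the only term), Benjamini-Hochberg adjusted over 17519 genes. SE is the log2 fold change over the root of F. The 17 alternatives used other scaling, no filter, DESeq2 1.42.0, limma 3.58.1 voom, a replicate block, each library left out, thinning to the smallest library, genes with under 5% shared sequence, and splines in GC content and log length (5 df each) as offsets. Counts were simulated for the 17519 genes of AMI-5 against control, with 200 genes changed. Recovery was 62.7% at a log2 change of 0.5, 89.6% at 1 and 95.5% at 2. Of the calls 10.8% were false, more than the adjusted p threshold of 0.05 allows for. In the data 54.1% of tested genes were called, and the simulation held no GC or length trend, so its rates may not hold for the data. Within groups, pairs of libraries had a chi-square of 6.94 to 18.0 per degree of freedom, so none was the same library sequenced again. This value cannot tell separate samples from separate preparations of a sample.

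The members and lists were chosen with earlier results of these data known. Text names the members, up to 3 called genes of a list by smallest p, up to 2 uncalled by highest mean (none for cofactors and other endocrine factors), the 3 nearest profiles per member, and Neurog3, Ins1, Ins2 and Gcg. Ero1b was matched by its older symbol. Some genes that this rule names are not reported here.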

Additional observations from a re-analysis of the deposited data

How the results depend on the processing

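Pdx1, Mafa and Mnx1 were lower and past the threshold in all 17 alternatives, and Nkx6-1 in 16 of 17. Removing GC and length trends over all genes, a fit that includes pseudogenes, left Nkx6-1 at -0.15 and brought Pax6 to 0.25, which made 1 member higher and 3 lower. The sign of Isl1 turned without passing with RLE scaling (0.0042), DESeq2 (0.0041), upper-quartile scaling (0.030), no filter (0.0019) and unique-sequence genes fitted alone (0.034), and Pax6 was at -0.060 with totals only. Leaving out a library gave -0.69 to -0.58 for Pdx1, -0.93 to -0.81 for Nkx6-1, -1.52 to -1.33 for Mafa, -1.03 to -0.87 for Mnx1, -0.053 to 0.047 for Isl1 and 0.0022 to 0.11 for Pax6. Relative to pan-endocrine markers, Isl1 ranged from -0.00043 to 0.15 with a library left out, and Pdx1 was at -0.49 with their geometric mean. Over all genes, 4820 were higher and 4652 lower, against 3962 and 5883 with totals only (40.2% of calls higher, against 50.9%). The all-gene GC and length correction gave 5428 and 4125 (56.8% of calls higher). The unique-sequence fit, which tests 10915 genes, called 2495 higher and 2733 lower, or 1915 and 2186 with trends removed. The replicate block, which the labels do not describe as a pairing, gave 4704 higher and 4482 lower genes, and the same 4 member calls (same-numbered libraries correlated at -0.058 to -0.038). It changed no member call.

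Among other named genes, removing trends over all genes turned Insm1 (0.29), Glis3 (0.19), Prox1 (0.032), Irx1 (0.49), Ssbp4 (0.77), Iapp (-1.76), Gcg (-0.60), Sst (-1.80) and Ins1 (-1.08). Of these, Glis3, Prox1 and Gcg did not pass in the new direction, and the others did. Over unique-sequence genes, removing trends turned Glis3 (0.030), Irx1 (0.022), Iapp (-0.17) and Ins2 (0.11), none past the threshold. With a library left out, Ins2 ranged from -0.17 to 0.058 and Ptf1a from -0.22 to 0.022. The cause of these turns was not tested. Depth limits Mnx1 most, at 137 to 196 reads per library, and thinning to the smallest library left it at -0.85.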
